A study of Mus musculus with 12 samples.

Results

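The genes described here are 33 genes of the mitotic spindle and its checkpoint, a set of names fixed by function and followed through mouse livers and cultured aortic endothelial cells. Each gene was read from its brightest probe set among those annotated to that gene only, separately in each tissue. Of the 33 genes, 32 had such a probe set, among 18193 genes on the array, and Ccnb1, which encodes cyclin B1, was not analysed here. The 32 genes were covered by 67 probe sets, with 1 probe set for 12 genes and more for the other 20. For 11 genes the brightest probe set was not the same one in liver and in aortic cells.

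RNA was measured on 12 Affymetrix Mouse Genome 430 2.0 arrays, 1 RNA sample each, from adult C57BL/6J mice. The titles number the 2 liver arrays of each genotype as replicates, and they are taken as 2 mice here. Livers came from 4 genotypes with 2 mice each, labelled Dscr-1;ApoE-DKO (double null), ApoE-KO (ApoE null), Dscr-1-KO (Dscr-1 null) and WT. Aortic endothelial cells came from double null (there labelled Dscr-1;ApoE-KO) and ApoE null mice, with 2 arrays per genotype, so that by its label every aortic sample lacked ApoE, and no aortic WT or Dscr-1 null sample was compared. Dscr-1, also named Rcan1, encodes a feedback inhibitor of the phosphatase calcineurin, and ApoE encodes an apolipoprotein that carries lipoproteins to their receptors. Both mutations are germline nulls present in every cell of the animal, and the endothelial cells were primary cells kept in culture. The labels give the liver mice 12 weeks of HFD (high-fat diet), whereas the study's text names normal chow for its liver arrays. In the series description the aortic control is Dscr-1 null, but the titles, genotypes and study text give ApoE null, and that was followed. The source names of the aortic arrays place replicate 1 of both genotypes in one run and replicate 2 of both in another, called run 1 and run 2 here.

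During mitosis, cyclin-bound Cdk1 drives entry, kinesin motors and microtubule binding proteins build the bipolar spindle, and kinetochores attach chromosomes to it. The spindle checkpoint holds the anaphase-promoting complex back until every kinetochore is attached, after which Cdc20 and separase (Espl1) trigger the separation of sister chromatids. Most of these genes are transcribed late in the cell cycle, through promoter elements named CHR and CCAAT that the MuvB complex, with B-Myb and FoxM1, and the factor NF-Y bind. Adult hepatocytes rarely divide unless the liver is injured, whereas primary endothelial cells divide in culture.

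The promoter windows of some of the genes are printed here because CHR and CCAAT letters recur in most, though not all, of the windows, a feature read outside the arrays. RefSeq windows on build GRCm38.p6, each 300 bases long and reaching 250 bases before and 50 bases after the annotated start, were matched for 28 of the 33 genes, and 5 (Kif20a, Ccna2, Cdc25c, Aurkb and Tpx2) had no window here. Capitals mark CHR matches (TTTGAA or TTCGAA on either strand) and CCAAT matches (CCAAT on either strand, read as ATTGG on the opposite one), and sequences run 5′ to 3′ along each gene. Top2a and Bub1 are shown because they had the lowest p values of the aortic comparison, Mki67, picked after its values were seen, because it had one of the largest within-run differences, Cdk1 as the kinase of mitotic entry, and Mad2l1 as a member with neither motif. Top2a lay at chr11:99024140-99024439 on the minus strand, Bub1 at chr2:127831810-127832109 on the minus strand, Mki67 at chr7:135716330-135716629 on the minus strand, Cdk1 at chr10:69352863-69353162 on the minus strand and Mad2l1 at chr6:66534971-66535270 on the plus strand.
Top2a: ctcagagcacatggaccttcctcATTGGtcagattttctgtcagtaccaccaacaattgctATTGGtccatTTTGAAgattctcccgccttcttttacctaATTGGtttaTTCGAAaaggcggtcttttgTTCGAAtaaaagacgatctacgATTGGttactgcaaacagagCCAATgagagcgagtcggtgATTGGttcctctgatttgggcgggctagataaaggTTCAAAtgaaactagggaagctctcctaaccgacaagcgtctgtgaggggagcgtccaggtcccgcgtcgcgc
Bub1: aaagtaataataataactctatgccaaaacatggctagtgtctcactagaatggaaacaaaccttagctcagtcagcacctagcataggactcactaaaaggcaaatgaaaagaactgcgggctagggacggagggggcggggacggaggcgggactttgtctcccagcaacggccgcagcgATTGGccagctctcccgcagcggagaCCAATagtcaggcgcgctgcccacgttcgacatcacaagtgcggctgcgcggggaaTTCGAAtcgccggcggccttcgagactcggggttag
Mki67: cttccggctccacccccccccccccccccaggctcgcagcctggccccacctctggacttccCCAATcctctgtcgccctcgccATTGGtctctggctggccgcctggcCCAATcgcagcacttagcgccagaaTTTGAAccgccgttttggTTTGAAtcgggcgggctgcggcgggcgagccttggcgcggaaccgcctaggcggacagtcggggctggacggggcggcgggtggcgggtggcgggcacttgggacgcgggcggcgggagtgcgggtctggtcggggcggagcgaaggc
Cdk1: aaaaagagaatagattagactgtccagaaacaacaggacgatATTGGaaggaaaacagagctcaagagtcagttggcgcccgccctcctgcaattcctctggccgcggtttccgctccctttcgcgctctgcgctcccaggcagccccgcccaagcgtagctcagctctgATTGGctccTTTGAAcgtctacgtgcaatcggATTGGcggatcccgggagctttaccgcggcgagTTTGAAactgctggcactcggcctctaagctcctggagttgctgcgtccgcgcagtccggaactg
Mad2l1: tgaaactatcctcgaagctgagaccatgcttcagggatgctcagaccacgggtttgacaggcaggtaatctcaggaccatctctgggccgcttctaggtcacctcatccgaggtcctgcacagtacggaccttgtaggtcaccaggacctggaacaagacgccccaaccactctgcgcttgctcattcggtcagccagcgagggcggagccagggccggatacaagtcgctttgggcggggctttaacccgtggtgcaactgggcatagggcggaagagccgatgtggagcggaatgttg

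A CHR match was present in 21 of the 28 windows (75%), compared with 19.4% of all 27025 RefSeq windows and 18.2% of the 17492 windows of protein-coding genes. A CCAAT match was present in 21 of 28 (75%), compared with 37.9% of all windows and 39.0% of those of protein-coding genes. Both motifs were present together in 18 of 28 (64.3%), compared with 7.7% of all windows and 7.43% of those of protein-coding genes. A CHR match beginning within 50 bases of the start was found in 19 of 28 (67.9%), compared with 5.29% of all windows and 4.41% of those of protein-coding genes. The Top2a window held 6 CCAAT matches and 4 CHR matches, and that of Cdk1 held 3 and 2. The windows of Birc5, Mad2l1, Nuf2 and Nusap1 held neither motif. These matches describe letters only and were not tested as sites of binding.

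**Figure D1:**
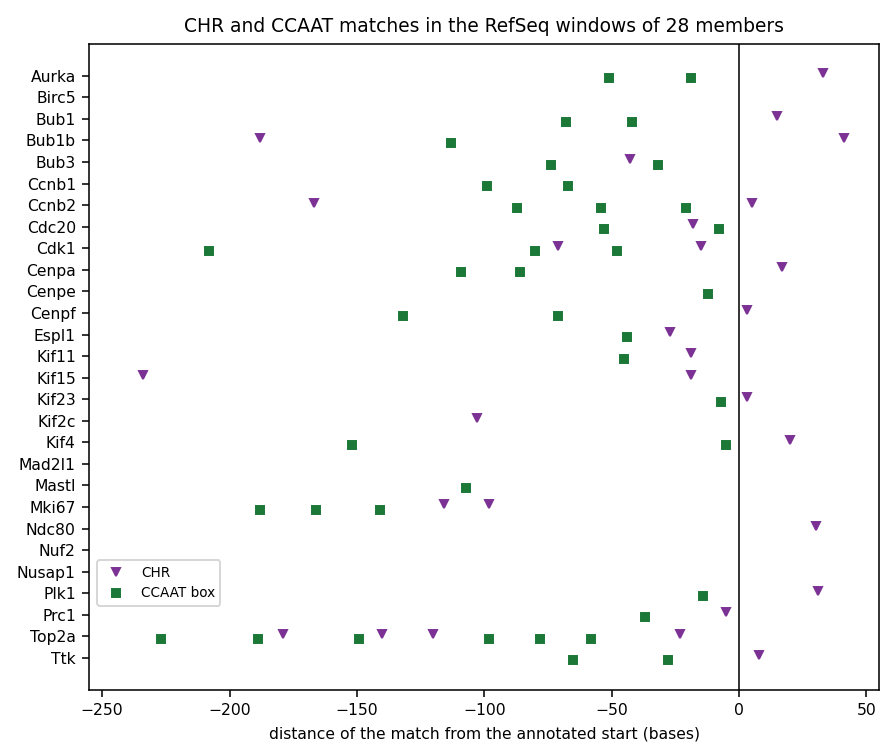
Positions of CHR matches (triangles) and CCAAT matches (squares) in the RefSeq promoter windows of 28 genes, as the distance in bases of the first matched base from the annotated start on the horizontal axis. Of the 28 windows, 21 held a CHR match and 19 held one beginning within 50 bases of the start, and 4 rows are empty.

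The labels were checked first. Apoe had liver signals of 83.7 and 79.8 in double null and 305 and 177.1 in ApoE null mice, against 19937 to 21510 in the other 4 livers. The Rcan1 probe set was not lower in the livers labelled as lacking Dscr-1 (209.5 to 491.5) than in the others (133.7 to 496.5). Whether it lies inside the deleted exons is not stated, and it did not check that genotype. On the aortic arrays, Apoe was above the array median throughout, at 8.29 and 6.69 log2 units in double null and 7.27 and 7.17 in ApoE null cells. Rcan1 was not lower in double null (10.09 and 10.26) than in ApoE null cells (9.99 and 9.92). These values did not check the aortic genotypes, which rest on the labels. All 10 hepatocyte markers measured were above the array median in every liver, and all 15 endothelial markers were above it on every aortic array. ApoE null liver replicate 1 stood apart, with a mean correlation of 0.839 with the other livers against 0.875 to 0.885 for the other 7, and double null aortic replicate 2 correlated at 0.985 against 0.991 to 0.992 for the other 3. With 2 arrays per genotype, and with no label that says which samples came from separate cultures, p values speak only for the spread seen among these arrays, which may be technical.

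In aortic endothelial cells, 31 of the 32 genes lay above the array median on all 4 arrays. The median gene of the set was at 8.19 and 8.49 log2 units on the double null arrays and at 8.45 and 8.10 on the ApoE null arrays, while the array medians were 4.45 to 4.5. Bub3, which carries checkpoint signals and also has roles outside mitosis, was the highest at 10.90 to 11.01, and Cdc25c, the phosphatase that activates Cdk1, was the lowest of the 31 at 5.74 to 6.39. Kif15, a spindle kinesin, was the exception at 3.77 and 4.08 in double null cells and 3.56 and 3.87 in ApoE null cells, below the median on all 4 arrays, and was not tested there. Because probe sets differ in brightness, these levels do not rank the genes by amount of transcript.

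**Figure D2:**
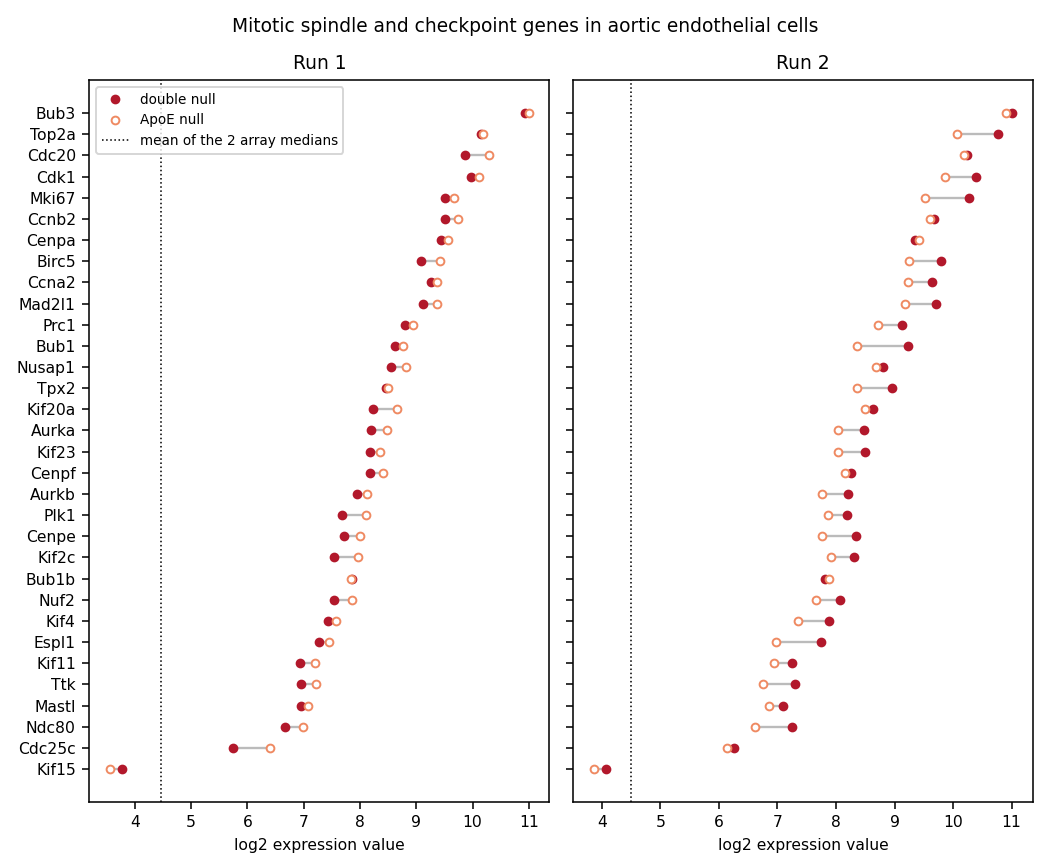
Log2 expression values of the 32 measured genes in aortic endothelial cells, with filled circles for double null and open circles for ApoE null cells, 1 array each per run, and a dotted line at the mean of that run's 2 array medians. In run 1 most filled circles lie left of the open ones, in run 2 most lie right of them, and only Kif15 lies below the array medians.

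Averaged over both runs, no difference between double null and ApoE null aortic cells passed the test in the 31 genes. With limma, 0 of 31 passed an adjusted p of 0.05 (percent called among all genes tested 0.0172, which is 2 of 11647), the smallest adjusted p was 1, and 0 of 31 had an unadjusted p under 0.05 (2.67% of all genes higher and 2.28% lower). The values of the genotypes overlapped for all 31 genes, whereas 16.8% of all genes had both double null arrays above both ApoE null arrays and 14.3% had both below. The log2 differences, double null minus ApoE null, ran between −0.27 and 0.37 with a median of 0.10, compared with −0.01 over all genes tested. No gene of the 31 differed over 2-fold between the mean signals in either direction (1.24% of all genes higher, 0.953% lower). With the run as a block, 0 of 31 were called, as were 0 of all genes.

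The mean hid opposite directions in the 2 runs. In run 1, 30 of 31 genes were lower in the double null than in the ApoE null array (52.1% of all genes tested), with a median log2 difference of −0.23. In run 2, 29 of 31 were higher in the double null array (48.3% of all genes tested), with a median of 0.42. Over all genes the medians were −0.01 in both runs. Altogether 29 of 31 genes were lower in run 1 and higher in run 2, a pattern seen in 22.1% of all genes tested. With 1 array per genotype in a run, the difference within a run has no replicate check and was not tested, and neither was the difference between the runs.

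Differences in run 2 were also larger. More than 1.25-fold, 7 genes were lower and 0 higher in run 1 (6.89% and 7.01% of all genes), and 20 were higher and 0 lower in run 2 (15.8% and 18.4%). Both genotypes differed between the runs. ApoE null cells were lower in run 2 than in run 1 for 30 of 31 genes (73.9% of all genes), by a median of −0.21 on the log2 scale. Double null cells were higher in run 2 than in run 1 for 29 of 31 genes (38.8% of all genes), by a median of 0.40. Double null replicate 2 was the highest of the 4 arrays for 23 of 31 genes (28.3% of all genes). Over all 50 probe sets of these genes above the filter, 43 were lower in run 1 and higher in run 2. Several of the 50 read the same gene on the same arrays, and the share over all probe sets was not counted.

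**Figure D3:**
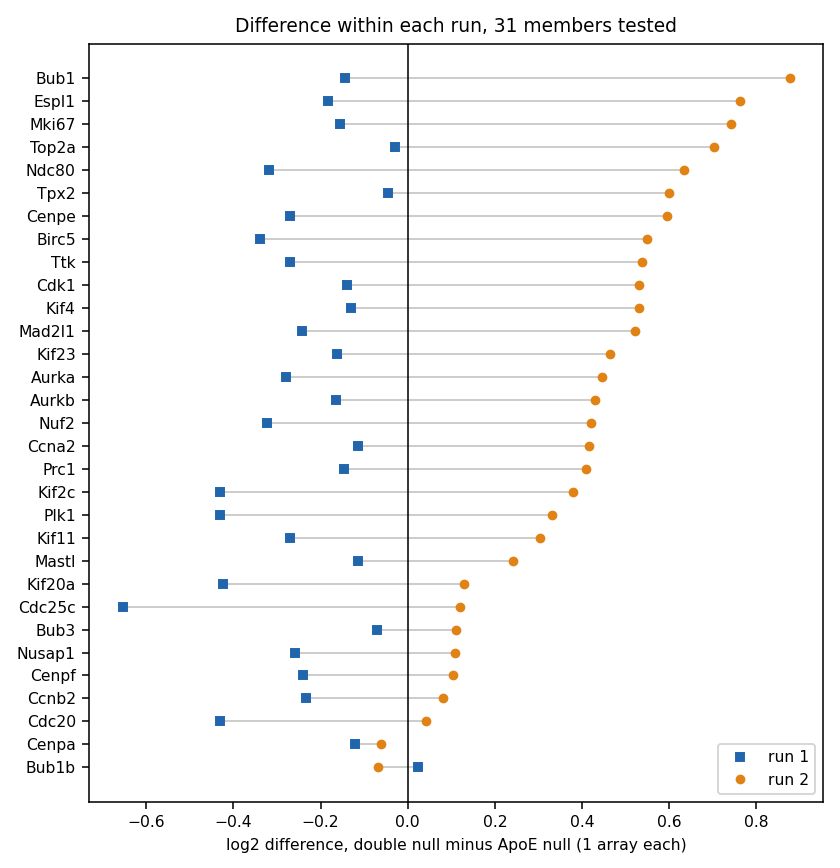
Log2 difference between double null and ApoE null aortic cells for the 31 genes tested, with squares for run 1 and circles for run 2, 1 array per genotype in each run. Of the 31 squares 30 lie below 0 and of the 31 circles 29 lie above 0, with Cenpa and Bub1b as the exceptions.

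Among the genes that mark and untangle mitotic chromosomes, Top2a, the topoisomerase that decatenates sister chromatids, had 10.16 in double null and 10.19 in ApoE null cells of run 1. In run 2, Top2a had 10.77 in double null and 10.06 in ApoE null cells. Only the double null array of run 2 stood apart, the genotypes overlapped, and the fitted difference was 0.34 (SE 0.24, unadjusted p = 0.227, adjusted p = 1 with limma). Mki67, which encodes the proliferation marker Ki-67, differed by −0.15 in run 1 and by 0.74 in run 2, with a fitted difference of 0.29 (SE 0.28).

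Of the spindle checkpoint genes, Bub1, a kinase that recruits the checkpoint to kinetochores, had 8.61 in double null and 8.76 in ApoE null cells of run 1. In run 2 it had 9.24 in double null and 8.36 in ApoE null cells, the largest within-run difference of any of the 31 genes. The highest and the lowest of its 4 values were thus both from run 2, and the fitted difference was 0.37 (SE 0.28, unadjusted p = 0.243, adjusted p = 1 with limma). Mad2l1, the protein that sequesters Cdc20, differed by −0.24 in run 1 and 0.52 in run 2, and Ttk, the kinase that starts checkpoint signalling, by −0.27 and 0.54. Bub3 differed by −0.07 and 0.11. Bub1b, whose product BubR1 binds Mad2l1 and Cdc20 in the inhibitory complex, was the only gene with the opposite order, at 0.02 in run 1 and −0.07 in run 2, although another of its probe sets gave −0.23 and 0.35.

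The 6 spindle motors tested were all lower in run 1, by 0.13 to 0.43, and all higher in run 2, by 0.13 to 0.59. Kif11, which pushes spindle poles apart, differed by −0.27 in run 1 and 0.30 in run 2. Cenpe, a kinetochore motor that brings chromosomes to the spindle equator, differed by −0.27 and 0.59, and Kif4, a chromosome-bound kinesin, by −0.13 and 0.53. Kif20a and Kif23, which act in cytokinesis, differed by −0.42 and 0.13 and by −0.16 and 0.46. Kif2c, a microtubule depolymerase, differed by −0.43 and 0.38.

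Cdc25c had 5.74 in double null and 6.39 in ApoE null cells of run 1, the largest difference of that run at −0.65. In run 2 it had 6.26 in double null and 6.13 in ApoE null cells. The low value was that of double null run 1, and the fitted difference was −0.27 (SE 0.23, unadjusted p = 0.305, adjusted p = 1 with limma). The other 4 tested genes of Cdk1 control followed the common pattern: Cdk1 differed by −0.14 in run 1 and 0.53 in run 2, and Ccna2, its cyclin in late interphase, by −0.11 and 0.42. Ccnb2, a mitotic cyclin, differed by −0.23 and 0.08, and Mastl, the kinase that restrains the opposing phosphatase PP2A, by −0.11 and 0.24.

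All 4 genes of the mitotic kinases and passenger complex were lower in run 1, by 0.16 to 0.43, and higher in run 2, by 0.33 to 0.55. Plk1, needed for spindle poles and mitotic exit, differed by −0.43 in run 1 and 0.33 in run 2. Aurka, the kinase of spindle poles, differed by −0.28 and 0.45, Aurkb, which corrects faulty attachments, by −0.16 and 0.43, and Birc5 (survivin), its partner at centromeres, by −0.34 and 0.55. Of the anaphase genes, Espl1 differed by −0.18 and 0.76, and Cdc20 by −0.43 and 0.04.

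At centromeres and kinetochores, Ndc80 and Nuf2, subunits of the complex that grips microtubules, differed by −0.32 and 0.63 and by −0.32 and 0.42. Cenpf, a large kinetochore protein, differed by −0.24 and 0.10. Cenpa, the histone H3 variant that marks centromeres, was lower in both runs, by 0.12 in run 1 and 0.06 in run 2. Tpx2, which activates Aurka on the spindle, had 8.46 in double null and 8.51 in ApoE null cells of run 1, and 8.96 in double null and 8.36 in ApoE null cells of run 2. The double null value of run 2 was again the highest of the 4, with a fitted difference of 0.28 (SE 0.22, unadjusted p = 0.263, adjusted p = 1 with limma). Prc1, which bundles midzone microtubules, differed by −0.15 and 0.41, and Nusap1, a spindle microtubule stabiliser, by −0.26 and 0.11.

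The other cell cycle lists followed in part. Of 49 further mitosis genes tested, limma called 0 (0 at an unadjusted p under 0.05), and 42 were lower in run 1 and higher in run 2, with medians of −0.18 and 0.43. Of 28 DNA replication genes, limma called 0 (0 at an unadjusted p under 0.05), 20 were lower in run 1 and all 28 were higher in run 2, with medians of −0.05 and 0.68. Of 15 regulators of mitotic genes, 8 were lower in run 1 and higher in run 2, with medians of −0.05 and 0.19. Foxm1 had 6.45 in double null and 6.42 in ApoE null cells of run 1, and 6.74 in double null and 6.26 in ApoE null cells of run 2. Mybl2, which encodes B-Myb, had 5.36 in double null and 5.62 in ApoE null cells of run 1, and 5.66 in double null and 4.90 in ApoE null cells of run 2. E2f1 differed by −0.06 and −0.18 and Lin54, a DNA-binding subunit of MuvB, by −0.05 and 0.41. The 15 cell cycle brakes had medians of 0.14 in run 1 and 0.03 in run 2, and Cdkn1a, the Cdk inhibitor p21, was higher in both, by 0.10 and 0.21. The 10 G1 cyclin and growth genes had medians of −0.03 and −0.01.

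**Figure D4:**
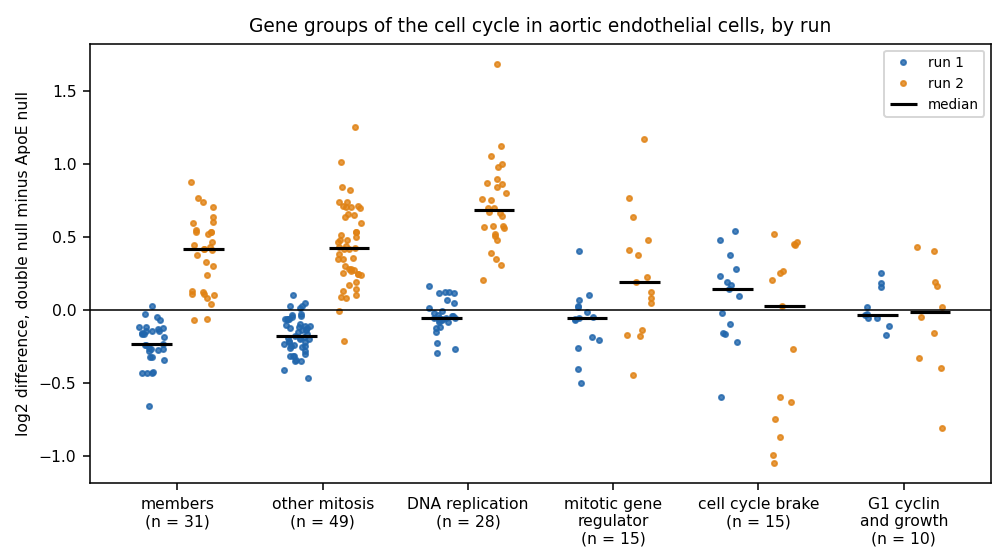
Log2 difference between double null and ApoE null aortic cells, 1 point per gene and run (run 1 left, run 2 right in each pair), for 6 lists of cell cycle genes, with black bars at the medians. The members lie at medians of −0.23 and 0.42, DNA replication genes at −0.05 and 0.68, and the G1 cyclin and growth genes at −0.03 and −0.01.

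Markers of other cell types also differed between the aortic arrays, and their part in the result was not tested. Macrophage markers (5 of 14 above the filter, with the defining gene Adgre1 below the array median on all 4 arrays) summed to 754 and 1664 linear units on the double null arrays of runs 1 and 2, and to 449.6 and 433 on the ApoE null arrays. Fibroblast and stellate cell markers (11 of 12 above the filter) summed to 12211 and 12002 in double null and to 6443 and 6281 in ApoE null cells, but 9 of the 11 were higher in double null cells in run 1 (median 0.77) and 8 of 11 were lower in run 2 (median −0.11). Dcn, a member of this list picked after its values were seen, was at 12.79 and 13.09 in double null and 12.02 and 12.02 in ApoE null cells. Smooth muscle markers (6 of 9) summed to 6515 and 2602 in double null and to 2979 and 2835 in ApoE null cells. Endothelial markers summed to 33836 and 30231 in double null and to 34560.5 and 33326.5 in ApoE null cells, with 8 of 15 higher in double null cells in run 1 and 6 of 15 in run 2 (medians 0.00 and −0.06). Single endothelial markers differed more widely in run 2, between −2.63 and 1.25, than in run 1, between −0.43 and 0.61. In RNA from a mixed culture or a whole tissue, fewer cells of a kind and less RNA per cell cannot be told apart.

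A call depended on 1 array. Without double null replicate 1, limma called 3 of 31 genes (9.68%), against 16.9% of all genes tested in that fit. They were Bub1 (0.68, SE 0.21, adjusted p = 0.0172), Mki67 (0.67, SE 0.20, adjusted p = 0.0150) and Top2a (0.64, SE 0.20, adjusted p = 0.0199), with 26 of 31 above 0 and a median of 0.31. That fit assumes that the lone double null array varies as the ApoE null pair does. Without double null replicate 2, 0 of 31 were called (3.99% of all genes), 6 of 31 were above 0 and the median was −0.06. Without either ApoE null array, 0 of 31 were called.

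In liver most of the same genes had low signals, around or below the array median. Of the 32 genes, 15 and 14 were above the array median in double null livers, 15 and 19 in ApoE null, 12 and 10 in Dscr-1 null and 9 and 11 in WT livers, compared with 62.1% to 62.8% of all genes. The median gene of the set had a signal of 31.25 and 29.05 in double null, 41.5 and 37.5 in ApoE null, 26.6 and 16.45 in Dscr-1 null and 21.2 and 22.9 in WT livers, while the array medians were 32.2 to 44.7. Bub3 alone exceeded the array median in all 8 livers, at 694.7 and 714.1 in double null, 501.3 and 612.5 in ApoE null, 594.2 and 655.8 in Dscr-1 null and 516 and 587 in WT livers. No other gene of the set exceeded 122.9 on any array. Kif20a, Cdc25c and Plk1 were below the median in all 8 livers.

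**Figure D5:**
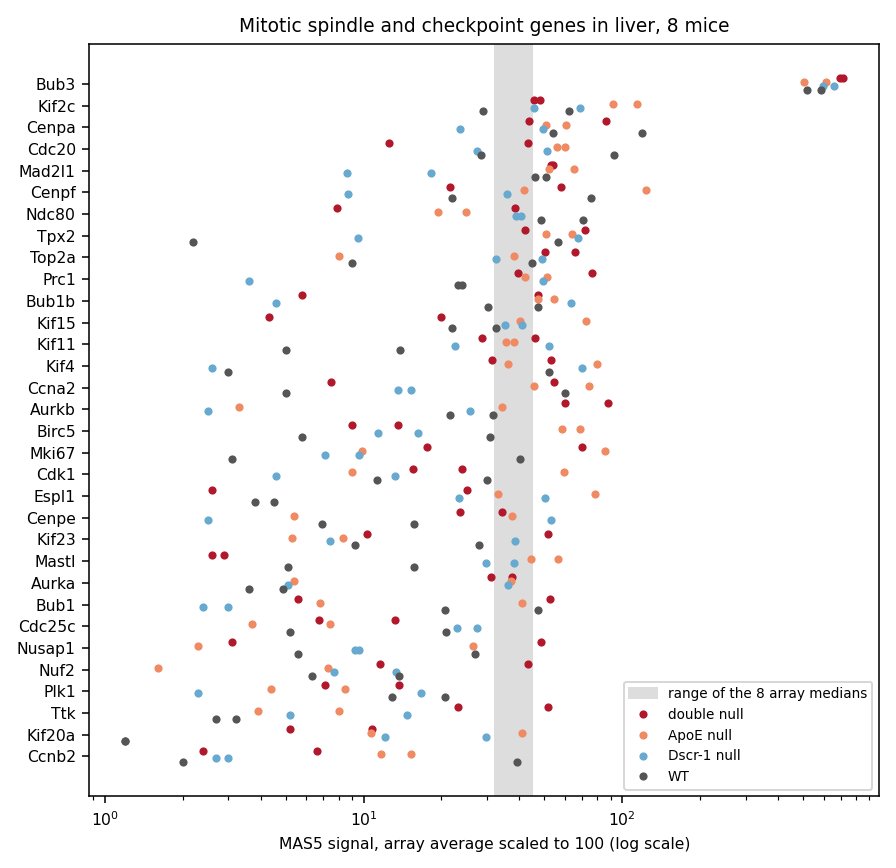
MAS5 signals of the 32 measured genes in liver on a log scale, 1 point per mouse coloured by genotype, with a grey band for the range of the 8 array medians (32.2 to 44.7). Bub3 lies far right of the band, at 501.3 to 714.1, and no other gene exceeds 122.9.

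In the liver comparisons, 23 of the 32 genes passed the filter on low values and were tested. The 9 that did not were Kif20a, Cenpe, Ccnb2, Cdk1, Cdc25c, Plk1, Ttk, Nuf2 and Nusap1. A gene of low signal passes this filter through the mice in which it is high, so counts over the 23 are given as a description only. For Aurka, Bub1, Bub1b, Cenpa, Cenpf, Kif23, Mastl and Tpx2, the probe set read in liver did not pass the filter in aortic cells. Another probe set of each of these genes did pass there. The only probe set of Kif15 also did not pass the filter in aortic cells. Liver values of these genes and of Kif15, and set counts and medians that include them, carry this limit. The mice of 1 genotype differed in these genes by a median of 0.73 (double null), 0.27 (ApoE null), 0.63 (Dscr-1 null) and 0.78 (WT) on the log2 scale, compared with 0.39, 0.53, 0.40 and 0.40 over all genes.

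None of the 23 genes passed an adjusted p of 0.05 in any liver comparison with limma. Between double null and WT livers the smallest adjusted p was 0.790 (percent called among all genes tested 0.0136) and 1 gene had an unadjusted p under 0.05, against 3.51% of all genes higher and 1.78% lower. Between ApoE null and WT livers the smallest adjusted p was 0.601 (percent called 0.0136), and at an unadjusted p under 0.05 there were 5 genes higher and 0 lower, against 3.46% and 2.24% of all genes. Between Dscr-1 null and WT livers the smallest adjusted p was 0.898 (percent called 0.00678), with 3 higher and 1 lower, against 1.92% and 1.9%. Between double null and ApoE null livers it was 0.586 (percent called 0), with 1 higher and 4 lower, against 2.83% and 2.42%. Between double null and Dscr-1 null livers it was 0.735 (percent called 0.00678), with 2 higher and 1 lower, against 2.84% and 1.48%. For the interaction of the 2 losses it was 0.755 (percent called 0), with 1 above and 3 below 0 at an unadjusted p under 0.05, against 2.07% and 2.23%.

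Over all 32 genes with no filter, the median log2 difference from WT was 0.16 in double null, 0.30 in ApoE null and −0.03 in Dscr-1 null livers, with medians over all genes of 0.02, 0.01 and −0.01. Both mice lay above both WT mice for 10 genes in double null (19.6% of all genes), 11 in ApoE null (17.9%) and 9 in Dscr-1 null livers (16.3%), and below both for 3 (17.7%), 3 (15.9%) and 4 (16.7%). Double null livers differed from ApoE null livers by a median of −0.02, with 6 genes higher (16.4%) and 7 lower (15.7%) without overlap, and from Dscr-1 null livers by a median of 0.35, with 8 higher (18.2%) and 5 lower (15.8%). By the ratio of mean signals with no test, over 2-fold higher and lower, 7 and 4 of the 23 tested genes were counted in double null (11.7% and 7.49% of all genes), 9 and 2 in ApoE null (13.2% and 7.89%) and 4 and 6 in Dscr-1 null livers against WT (9.15% and 8.63%). Double null livers gave 3 and 7 against ApoE null (9.2% and 9.93%) and 6 and 3 against Dscr-1 null livers (11.1% and 7.4%). These comparisons share mice: each rests on 2 livers per genotype, and the WT and double null livers enter 3 of them each.

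Mastl had signals of 2.9 and 2.6 in double null, 56.5 and 44.3 in ApoE null, 29.8 and 38 in Dscr-1 null and 15.6 and 5.1 in WT livers. The double null mice were below all others, and the difference from ApoE null mice was −1.82 (SE 0.37, unadjusted p = 0.00131, adjusted p = 0.586 with limma). Against WT, Mastl differed by 0.95 in Dscr-1 null (adjusted p = 0.985) and by 1.36 in ApoE null livers (adjusted p = 0.601), and double null differed from Dscr-1 null livers by −1.41 (adjusted p = 0.735). A second Mastl probe set was also lowest in double null livers, at 3.9 and 4.4 against 7.6 and 7 in ApoE null livers, but had 26.2 and 67 in WT livers. The third went the other way, at 30.4 and 45.6 in double null against 6.9 and 16 in ApoE null livers. The probe set read in liver was below the array median on every aortic array, and averaging the 3 probe sets turned the ApoE null difference from WT to −0.07.

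Espl1 had signals of 25 and 2.6 in double null, 78.6 and 33.2 in ApoE null, 50.4 and 23.3 in Dscr-1 null and 3.8 and 4.5 in WT livers. Both single null pairs were above both WT mice, by 1.34 for Dscr-1 null (SE 0.53, adjusted p = 0.988) and by 1.76 for ApoE null (SE 0.53, adjusted p = 0.641). Mad2l1 had 53.9 and 53.2 in double null, 51.9 and 65.3 in ApoE null, 18.3 and 8.6 in Dscr-1 null and 50.8 and 45.9 in WT livers. The Dscr-1 null mice were the lowest, with a difference from WT of −1.15 (SE 0.36, adjusted p = 0.898) and of double null from Dscr-1 null livers of 1.26 (adjusted p = 0.735).

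Birc5 had 13.6 and 9 in double null, 58.5 and 68.9 in ApoE null, 11.4 and 16.3 in Dscr-1 null and 30.8 and 5.8 in WT livers. The ApoE null mice were above the other 6, by 1.32 over WT (SE 0.44, adjusted p = 0.680), and double null mice differed from them by −1.55 (SE 0.44, adjusted p = 0.60). Kif15 had 19.9 and 4.3 in double null, 72.3 and 40.1 in ApoE null, 40.8 and 35.2 in Dscr-1 null and 32.5 and 21.9 in WT livers, and the double null mice were the lowest. They differed from ApoE null mice by −1.38 (SE 0.44, adjusted p = 0.623) and from Dscr-1 null mice by −0.998 (SE 0.44, adjusted p = 0.939). The only Kif15 probe set was below the array median on every aortic array.

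Kif11 had 28.6 and 45.8 in double null, 35.4 and 38 in ApoE null, 52.2 and 22.6 in Dscr-1 null and 5 and 13.8 in WT livers. The WT mice were the lowest 2 of the 8, and 3 of the 8 values exceeded their array's median. Its other 2 probe sets above the filter did not show this, with 25.3 and 41.6 for one and 8.5 and 2.6 for the other in double null livers, against 34.1 and 21.7 and 12.7 and 20 in WT livers. Ndc80 had 7.9 and 38.4 in double null, 19.4 and 24.9 in ApoE null, 38.8 and 40.6 in Dscr-1 null and 48.4 and 70.7 in WT livers. The WT mice were the highest for this gene, and the double null difference was −1.05 (SE 0.46, adjusted p = 0.824), which was −0.46 without double null replicate 1 and −1.64 without replicate 2.

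Aurka had 31.2 and 37.6 in double null, 5.4 and 37 in ApoE null, 36.3 and 5.1 in Dscr-1 null and 4.9 and 3.6 in WT livers, with a double null difference from WT of 1.31 (SE 0.58, adjusted p = 0.823). Aurkb had 87.9 and 60.1 in double null, 34.2 and 3.3 in ApoE null, 25.8 and 2.5 in Dscr-1 null and 21.6 and 31.7 in WT livers. The double null mice were the highest for Aurkb, by 1.51 over ApoE null (SE 0.58, adjusted p = 0.70), 1.68 over Dscr-1 null (SE 0.58, adjusted p = 0.812) and 1.07 over WT livers (adjusted p = 0.890). For both kinases a second probe set, the brighter one in aortic cells, gave another order in liver, with 3.2 and 32.9 for Aurka and 3.6 and 6.1 for Aurkb in double null, against 6.4 and 34.7 and 13.3 and 2.6 in WT livers. The Aurka probe set read in liver was below the array median on every aortic array. It had 2.86 and 2.81 log2 units in double null and 2.99 and 3.12 in ApoE null cells.

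Summed signals of immune cell markers differed between the liver arrays, and their part in the values above was not tested. Macrophage and Kupffer cell markers (14 of 14 above the filter) summed to 22854 and 15257 in double null, 15684 and 10487 in ApoE null, 8181 and 6709 in Dscr-1 null and 6190 and 8269 in WT livers. With limma 0 of the 14 passed in any comparison. At an unadjusted p under 0.05 with limma, double null livers had 9 higher and 0 lower against WT (3.51% and 1.78% of all genes). They had 7 higher and 0 lower against Dscr-1 null livers (2.84% and 1.48%), and 0 of either against ApoE null livers (2.83% and 2.42%). Against WT, ApoE null livers had 3 higher and 0 lower (3.46% and 2.24%), and Dscr-1 null livers 0 of either (1.92% and 1.9%). By their mean log2 values, 12 of the 14 were above WT in double null livers and 2 were below. Adgre1 was among the latter, at 163.4 and 193.8 in double null and 148.9 and 308.6 in WT livers. Such sums weigh bright genes most. Lymphocyte markers (7 of 12 above the filter) summed to 604 and 642.5 in double null, 762.4 and 536 in ApoE null, 509.6 and 395 in Dscr-1 null and 386.5 and 485 in WT livers. Of these 7, 0 passed in any comparison and at most 1 had an unadjusted p under 0.05. Ptprc, picked after its values were seen, gave the largest single value in each lymphocyte sum. Its signals were 404.7 and 277.1 in double null, 452.1 and 227.6 in ApoE null, 252.5 and 140.3 in Dscr-1 null and 199.4 and 206.8 in WT livers. Leukocytes of other kinds also express Ptprc, so these sums do not measure lymphocytes alone. Replicate 1 of the ApoE null livers, which correlated least with the rest, was the highest of the 8 for 9 of 32 genes (21.2% of all genes). Of 36 further mitosis genes and 25 DNA replication genes tested, 0 passed in any of the 5 comparisons with limma, and in each comparison 0 to 2 of either list were higher and 0 or 1 lower at an unadjusted p under 0.05. Cenpm, a kinetochore subunit, had the lowest p of the further mitosis genes between double null and WT livers, with a difference of 2.03 (SE 0.43, adjusted p = 0.658 with limma), and Foxm1 differed there by 1.58 (SE 0.48, adjusted p = 0.671).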

How the data were processed

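The genes and lists were chosen with earlier results of these data known. The deposited liver values are MAS5 signals, a linear intensity per probe set that the authors computed with Affymetrix GeneChip Operating Software and scaled to an array average of 100. The deposited aortic values are log2, for which the submitters' notes name Transcriptome Analysis Console and with a normalization not given in the sources used here. Liver signals were tested as log2(signal + 16) and aortic values as deposited, so fold changes of low liver genes are understated. Signals of MAS5 subtract mismatch probes, and low signals are imprecise. The number of arrays limits the precision.

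Of 45037 probe sets, which leaves out 64 controls, 34945 had 1 gene, 932 several and 9160 none, and 34741 of the first kind could be matched through their Entrez identifiers. A probe set was tested in a tissue where at least 2 arrays had it over the array median (32005 in liver, 22927 in aortic cells, with 14758 and 11647 genes read from their brightest probe set). Differences came from limma (3.58.1, run in R 4.3.3), with lmFit and eBayes on 1 mean per genotype and each tissue alone, and p values were adjusted over all probe sets above the filter (Benjamini-Hochberg). The fit was tested on simulated data. Probe sets whose name ends in _x_at or _s_at (among them those of Bub3, Cdc20, Prc1 and Aurkb) may also bind related transcripts. Marker sums add linear values over all measured genes of a list, in aortic cells after taking the log2 values back to linear units.

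By their source names, aortic arrays of the same number belong to 1 run. Their deviations from the genotype means correlated at 0.297 over all probe sets and at −0.14 over the 31 genes, so the run was used as a block in an alternative fit. Values on every array are given for up to 4 genes of the set with the lowest unadjusted p in each comparison, and all may be named with their differences. Outside the set the rule names Foxm1, Mybl2, E2f1, Lin54, Cdkn1a, up to 3 genes per list with the lowest p, and Apoe and Rcan1. Adgre1, Dcn and Ptprc were picked after their values were seen. Alternatives changed the offset, filter, probe set rule, scaling, spread, samples, block, test and call rule, left out each array, and, chosen after seeing the data, took each run alone.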

Additional observations from a re-analysis of the deposited data

Results flagged for a closer look

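The direction of the aortic difference was opposite in the 2 runs, which were separate sets of arrays under the same contrast. The median log2 difference of the 31 genes, double null minus ApoE null, was −0.23 in run 1 and 0.42 in run 2. Of the 31 genes, 29 were below the ApoE null array in run 1 and above it in run 2. The difference between the runs was not tested, since each run held 1 array per genotype.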

How the results depend on the processing

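The data hold 2 arrays per genotype. Most of the genes lay around or below the array median in liver, where MAS5 signals are imprecise. A difference within an aortic run rests on 1 array per genotype. In liver the number of genes called stayed at 0 under every alternative fit with limma, leaving out each array included. A 2-fold ratio of mean signals with no test took 10 genes for Dscr-1 null, 11 for ApoE null and 11 for double null against WT, 10 for double null against ApoE null and 9 against Dscr-1 null. A 2-group t-test on the log2 values took 1, 1, 1, 3 and 2 in the same order at an unadjusted p under 0.05. After adjustment it took 0. The study's methods name such a test in general, but none for the arrays. Its share over all genes was not counted, so these counts are a description only. The ApoE null median against WT was 0.64, and became 0.30 with no filter, 0.31 with the mean over all probe sets of a gene, 0.95 with an offset of 1 and 0.33 with an offset of 64. With the mean over all probe sets the Dscr-1 null median against WT was 0.16 and that of double null against Dscr-1 null 0.15, which was 0.16 with an offset of 64. The interaction median was 0.0746 with no filter and −0.36 with an offset of 1. Mastl reversed to −0.0740 between ApoE null and WT livers with the mean over its probe sets. With 1 array left out, liver medians ranged between −0.16 and 0.02 for Dscr-1 null, 0.26 and 0.55 for ApoE null and 0.0751 and 0.33 for double null against WT, between −0.56 and −0.10 for double null against ApoE null, between 0.0275 and 0.24 against Dscr-1 null, and between −0.49 and 0.18 for the interaction. For single genes of low liver signal, leaving out 1 array moved Ndc80 in double null against WT between −1.64 and −0.46, Birc5 in ApoE null against WT between 0.76 and 1.87, Kif11 in Dscr-1 null against WT between 0.63 and 1.45, and Aurkb and Kif15 in double null against ApoE null between 0.82 and 2.20 and between −1.79 and −0.97. No named liver gene changed direction when 1 array was left out. In aortic cells with 1 array left out, 0 to 3 genes were called, 3 of them without double null replicate 1, and the median ranged between −0.06 and 0.31. In run 1 alone the aortic median was −0.23, and Top2a (−0.03), Bub1 (−0.14) and Tpx2 (−0.0463) reversed. In run 2 alone it was 0.42, and Cdc25c reversed to 0.12. The cause of these changes was not tested. With the replicate number as a block, 0 genes of the set were called in either tissue, and no call changed. In liver same-numbered arrays correlated at −0.00 to 0.03 and share only a number.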
